A study of Homo sapiens with 4 samples.

Results

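The cytosolic translation initiation and elongation factors were taken as the protein-coding genes of the deposited table whose symbol starts with EIF and a number from 1 to 6, or with EEF, leaving out the kinases EIF2AK, the EIF2C (Argonaute) genes and the EIF4EBP repressors. The rule found 61 rows and, with the row of the highest mean kept for 2 repeated symbols, 59 genes of the 63677 in the table. The cells were MDA-MB-231, an established human line of triple-negative breast cancer, transfected with a control siRNA (siCt, 2 libraries) or with pooled siRNAs that target AXL (siAxl, 2 libraries). AXL is a receptor tyrosine kinase, and the comparison asks which transcripts change when it is depleted. Both groups are the same line and went through transfection. The labels do not say that the 2 libraries of a group came from separate transfections, so the spread between them may be technical.

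Translation of an mRNA in the cytosol begins when eIF2 brings the initiator tRNA to the small ribosomal subunit, on a platform built by eIF1, eIF1A, eIF3 and eIF5. The eIF4 proteins recruit the mRNA by its cap, and eIF5B joins the large subunit. The eEF1 proteins then deliver aminoacyl-tRNAs and eEF2 moves the ribosome along the mRNA. Growth signals through PI3K, mTOR and ERK are known to act on this machinery, mostly by phosphorylation of its proteins, which RNA sequencing does not measure. In many cell types the mRNAs of several elongation factors begin with a terminal oligopyrimidine (TOP) tract, a C followed by pyrimidines, through which mTOR controls their translation.

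The letters around the start of transcription are shown for 6 members that begin with such a tract, then for 8 members whose transcript level differed between siAxl and siCt. Each line holds 30 bases of RefSeq sequence on GRCh38.p14, written 5′ to 3′, from 10 bases before to 20 bases after the annotated start, and the first 5 transcribed bases are in capitals. Members with a pyrimidine start are the following.
EEF1A1 (chr6:73521013-73521042, minus strand): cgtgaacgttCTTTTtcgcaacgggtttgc
EEF2 (chr19:3985444-3985473, minus strand): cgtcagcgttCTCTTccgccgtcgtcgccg
EIF4B (chr12:53006446-53006475, plus strand): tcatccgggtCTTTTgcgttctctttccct
EIF4A2 (chr3:186783567-186783596, plus strand): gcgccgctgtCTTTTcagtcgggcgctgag
EIF3F (chr11:7987327-7987356, plus strand): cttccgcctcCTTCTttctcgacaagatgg
EIF2S3 (chrX:24054946-24054975, plus strand): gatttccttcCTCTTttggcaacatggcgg
Members past the threshold of the test begin as follows.
EIF5A2 (chr3:170908618-170908647, minus strand): cccgtctcttGGAACtgccgcggccgccac
EEF1E1 (chr6:8102529-8102558, minus strand): tgcaggtctcGCGTCtgccaggagctacgg
EIF2B3 (chr1:44986576-44986605, minus strand): gctgtcagtcAGAGGcggcgtggagatcgc
EIF2S1 (chr14:67360318-67360347, plus strand): gaggttccgcATGCGcggtggagtgagcga
EIF1 (chr17:41688875-41688904, plus strand): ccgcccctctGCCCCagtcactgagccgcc
EIF5A (chr17:7306989-7307018, plus strand): tgggaacccgACCACactagcgcgctagaa
EIF6 (chr20:35284698-35284727, minus strand): tggtaagctgGTGTGaggggaacctgggag
EIF4E3 (chr3:71754754-71754783, minus strand): cccgccgtccAGTTGgcggccgcctggccg
Of the 59 members, 50 were matched to a RefSeq promoter by symbol, and 12 of them (24.0%) began with C and at least 4 further pyrimidines, against 4.07% of all 35116 promoters in the RefSeq set. That set counts every promoter rather than 1 per gene, and includes genes not tested here. Among the genes tested in these data and matched by symbol, 532 had such a start and 9758 did not. The match rests on the annotated first base, and a start annotated a few bases away hides a tract.

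The libraries held 39574387 to 44585773 reads, of which the 59 factors took 1.53% and 1.55% in siCt 1 and siCt 2, and 1.43% and 1.46% in siAxl 1 and siAxl 2. Values are normalized counts, that is, reads per gene after division by a size factor for each library. AXL had 29189 and 30617 normalized counts in siCt and 8658 and 7141 in siAxl. A positive fold change means a higher level in siAxl, on the log2(normalized count + 1) scale, and differences were tested with limma over 16064 genes, with Benjamini-Hochberg adjustment and a threshold of 0.05. Over all of them 3006 genes passed, 57.7% of these higher in siAxl, or 46.8% when libraries were scaled by total reads alone. Of the markers of the line, VIM had 86751 to 99296 normalized counts, and ESR1 and PGR at most 3 reads in any library. Other luminal and epithelial markers were present, with ERBB2 at 2949 to 3680 normalized counts (higher in siAxl, limma adjusted p = 0.0258), EPCAM at 565 to 771, GATA3 at 248 to 303 and CDH1 at a mean of 92.2 in siCt and 29.8 in siAxl (lower, limma adjusted p = 0.00847). Of the blood cell markers CD3E and HBB had at most 1 read, and PTPRC 8 to 17, while CD14 had 68 to 115 reads, more in siAxl (100 and 113 normalized counts) than in siCt (69.0 and 73.7). The part of these in the results was not tested. Libraries with the same number resembled each other in some measures. Mitochondrially encoded genes took 3.70% and 3.78% of the reads in siCt 1 and siAxl 1, and 2.11% and 2.28% in siCt 2 and siAxl 2.

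The factors as a group were slightly lower after AXL knockdown, and few changed by much. Of 55 members tested, 9 (16.4%) fell and 2 (3.64%) rose, against 7.91% lower and 10.8% higher among all genes tested. Of the protein-coding genes tested, 9.24% were lower and 12.6% higher. Together the 11 members make up 20% of those tested, against 18.7% of all genes and 21.8% of protein-coding genes, so that the share called was near the background. The median standard error was 0.0620 over the members and 0.0891 over all genes. The median log2 fold change of the members was -0.091, against -0.0022 over all genes, and 42 of 55 (76.4%) lay below 0, against 50.3% of all genes. The siAxl values were both lower than either siCt value in 32 members (58.2%, against 30.5% of all genes) and both higher in 9 (16.4%, against 30.6%), and the groups overlapped in 14. The median stayed between -0.121 and -0.0767 under every alternative of scaling, test and left-out library that was run. Because bulk RNA was measured, fewer cells in a state and less RNA per cell cannot be told apart.

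**Figure D1:**
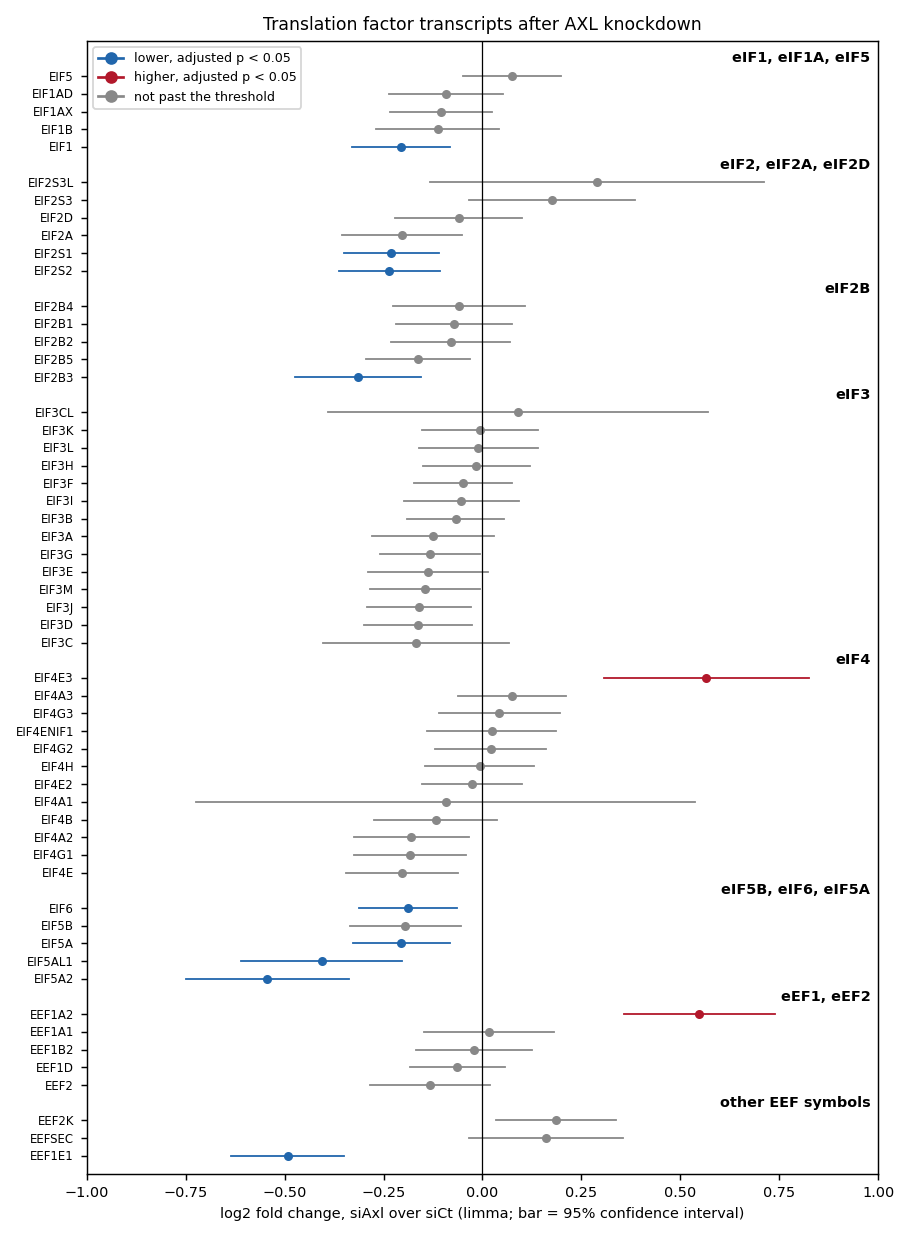
Log2 fold change, siAxl over siCt, of each of the 55 translation factor genes tested, grouped by role, with the 95% confidence interval from limma as a bar. Blue marks the 9 genes that were lower and red the 2 that were higher at an adjusted p under 0.05, and most of the grey genes lie between -0.20 and 0.10.

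A fit without 1 library leaves 1 library in a group. Without siAxl 1, siAxl 2 or siCt 2 fewer members were called than with all 4 libraries, and so were fewer of all genes. Whether the members lost a larger share of their calls than all genes did was not tested. EIF5A2, EEF1E1 and EEF1A2 remained past the threshold without each library in turn and under each of the 15 alternatives. The other 8 lost their call without at least 1 library. Among the 44 members that were not called, 11 had an unadjusted p under 0.05, and 10 of those were lower in siAxl.

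The largest fall was that of EIF5A2. EIF5A and EIF5A2 encode eIF5A, the factor that carries the amino acid hypusine and helps the ribosome past difficult peptide bonds, and EIF5A2 is the isoform found in fewer tissues. EIF5A2 (ENSG00000163577) had 1428 and 1590 normalized counts in siCt 1 and siCt 2, and 976 and 1094 in siAxl 1 and siAxl 2. Its mean went from 1509 ± 114 to 1035 ± 83.1 (SD, n = 2 in each), or 68.6% of the siCt level (log2 fold change -0.54 ± 0.0873 (SE), limma adjusted p = 0.00868). EIF5A (ENSG00000132507), the common isoform, had 17471 and 17589 in siCt and 15103 and 15297 in siAxl, a smaller fall of 0.21 on the log2 scale (SE 0.0520, limma adjusted p = 0.0354). EIF5A lost its call without any 1 of the 4 libraries, with adjusted p up to 0.187.

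Within each library, the reads of EIF5A2 per 100 reads of EIF5A were 8.17 and 9.04 in siCt and 6.46 and 7.15 in siAxl. This ratio does not depend on the scaling of the libraries, and the groups did not overlap. With 2 libraries against 2, the smallest two-sided p of an exact permutation test is 0.333, which this difference gave. EIF5AL1, an intronless copy, fell from 588 and 558 to 425 and 438 (log2 fold change -0.41 ± 0.0858 (SE), limma adjusted p = 0.0208), and lost its call without siAxl 1 or siAxl 2, with adjusted p up to 0.0959. Its coding sequence is 98.9% identical to that of EIF5A over 462 aligned bases, so reads of the 2 genes can be confused. The coding sequences of EIF5A2 and EIF5A are 72.8% identical. DOHH, which completes hypusine on eIF5A, fell by 0.39 on the log2 scale (SE 0.0895, limma adjusted p = 0.0262), and DHPS, the enzyme of the earlier step, had a log2 fold change of -0.095 (adjusted p = 0.364).

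EIF6 and EIF5B act on the large ribosomal subunit, EIF6 by keeping it apart and EIF5B by joining it. EIF6 (ENSG00000242372) had 12090 and 12467 normalized counts in siCt and 10715 and 10838 in siAxl (log2 fold change -0.19 ± 0.0525 (SE), limma adjusted p = 0.0479). Its adjusted p was just under the threshold, and leaving out any 1 library raised it, up to 0.228. EIF5B had a log2 fold change of -0.19 (95% confidence interval -0.33 to -0.055, adjusted p = 0.0615). It passed with libraries scaled by total reads alone and after removal of trends in GC content and exonic length. With the replicate number as a block, as given below, it passed too. In all 5 genes of this group the siAxl values lay below the siCt values, as in 30.5% of all genes.

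The smallest adjusted p among the members was that of EEF1E1, whose product, despite its name, is a scaffold protein of the multi-tRNA synthetase complex. EEF1E1 (ENSG00000124802) had 2000 and 2001 normalized counts in siCt and 1446 and 1398 in siAxl. Its mean went from 2001 ± 0.711 to 1422 ± 33.9 (SD, n = 2 in each), or 71.1% of the siCt level (log2 fold change -0.49 ± 0.0609 (SE), limma adjusted p = 0.00385). The siAxl values lay below the siCt values. An SD of 2 libraries as small as that of siCt is not a measure of precision, and the SE was near the member median of 0.0620. EEF2K, the kinase that inhibits eEF2, had 1130 and 1114 in siCt and 1281 and 1271 in siAxl (0.19, 95% confidence interval 0.033 to 0.34, adjusted p = 0.0888). EEFSEC, the elongation factor of selenocysteine, had a log2 fold change of 0.16 (adjusted p = 0.219), and shares 15.3% of its exonic bases with RUVBL1 on the opposite strand.

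Among the elongation factors proper, EEF1A2, the rare isoform of eEF1A, passed the test and the other 4 tested did not. EEF1A2 is the form of muscle and neurons and is switched on in some tumours, while EEF1A1 is the common form. EEF1A2 (ENSG00000101210) had 1049 and 972 normalized counts in siCt and 1556 and 1401 in siAxl. Its mean rose from 1010 ± 54.5 to 1479 ± 109 (SD, n = 2 in each), or 146% of the siCt level (log2 fold change 0.55 ± 0.0809 (SE), limma adjusted p = 0.00670). The siAxl values lay above the siCt values, and the call held without each library in turn.

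EEF1A1 (ENSG00000156508) had the highest count of all members, 26.2% to 27.9% of their reads, with 171657 and 174183 normalized counts in siCt and 172577 and 177209 in siAxl. The groups overlapped (log2 fold change 0.016, standard error 0.0694, 95% confidence interval -0.15 to 0.18, limma adjusted p = 0.895). EEF1A2 therefore stayed a small part, with 0.611 and 0.558 reads per 100 reads of EEF1A1 in siCt and 0.902 and 0.791 in siAxl (exact permutation p = 0.333, the smallest possible). EEF2 (ENSG00000167658), the translocase, had 49869 and 53013 in siCt and 45822 and 48029 in siAxl (log2 fold change -0.13 ± 0.0643 (SE), limma adjusted p = 0.198). EEF1B2 and EEF1D, subunits of the exchange factor of eEF1A, had log2 fold changes of -0.022 and -0.064 (adjusted p = 0.843 and 0.435).

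**Figure D2:**
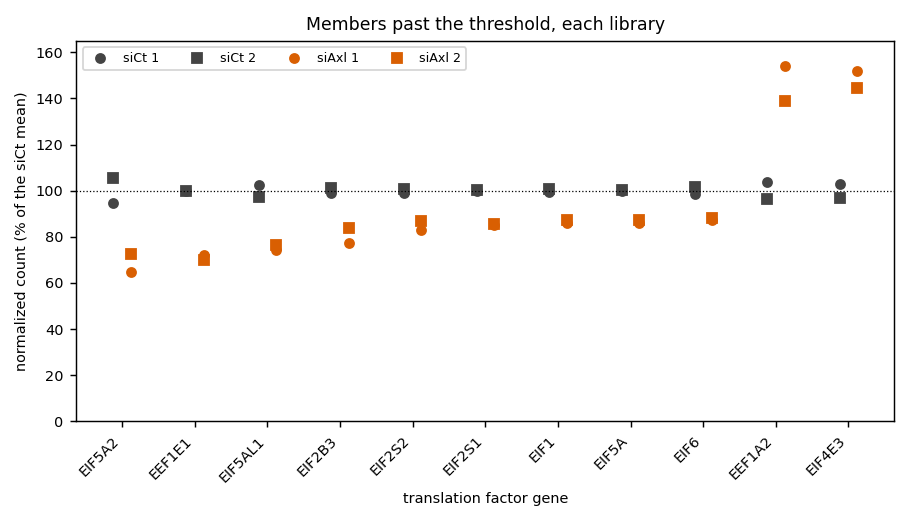
Normalized counts of the 11 members past the threshold in each library, as a percentage of the mean of the siCt libraries of that gene. Circles are libraries with number 1 and squares those with number 2. In each gene the siAxl libraries (orange) lie apart from the siCt libraries (dark), as in 61.2% of all genes tested. The genes were picked by the test on these same libraries. The siAxl means run from 68.6% of the siCt mean in EIF5A2 to 148% in EIF4E3.

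Of the eIF2 genes the alpha and beta subunits fell and gamma was not called. EIF2S1, EIF2S2 and EIF2S3 encode its alpha, beta and gamma subunits, of which alpha is the target of the stress kinases and gamma binds the initiator tRNA. EIF2S1 (ENSG00000134001) had 8654 and 8701 normalized counts in siCt and 7376 and 7417 in siAxl (log2 fold change -0.23 ± 0.0510 (SE), limma adjusted p = 0.0240). EIF2S2 (ENSG00000125977) had 7882 and 8022 in siCt and 6600 and 6912 in siAxl (log2 fold change -0.24 ± 0.0543 (SE), limma adjusted p = 0.0271). Both fell to 85% of the siCt mean, with no overlap between the groups.

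Both calls were lost without siAxl 1, siAxl 2 or siCt 2, with adjusted p up to 0.124 and 0.166, while the fold changes stayed between -0.27 and -0.20. EIF2S3, which begins with a pyrimidine tract, had 7443 and 6224 normalized counts in siCt and 7944 and 7438 in siAxl. The siAxl 2 library lay just below siCt 1, and the difference was not called (log2 fold change 0.18, 95% confidence interval -0.034 to 0.39, adjusted p = 0.215), although it was without siCt 1 (0.30, adjusted p = 0.00659). Without siCt 2 the log2 fold change of EIF2S3 was 0.047 (adjusted p = 0.793). Per 100 reads of EIF2S3, libraries held 116 and 140 reads of EIF2S1 in siCt and 92.8 and 99.7 in siAxl. For EIF2S2 these ratios were 106 and 129 in siCt and 83.1 and 92.9 in siAxl, and each ratio gave an exact permutation p of 0.333, the smallest possible. EIF2S1 shares 4.76% of its exonic bases with ATP6V1D on the opposite strand, and the strand setting of the counting is not given in the sources used here. EIF2A and EIF2D, other proteins that can carry the initiator tRNA, had log2 fold changes of -0.20 (adjusted p = 0.0696) and -0.060 (adjusted p = 0.589), and EIF2A passed without siCt 1. EIF2S3L, whose coding sequence is 98.2% identical to that of EIF2S3, had 79.6 and 80.2 normalized counts in siCt and 111 and 86.5 in siAxl (0.29, adjusted p = 0.305).

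**Figure D3:**
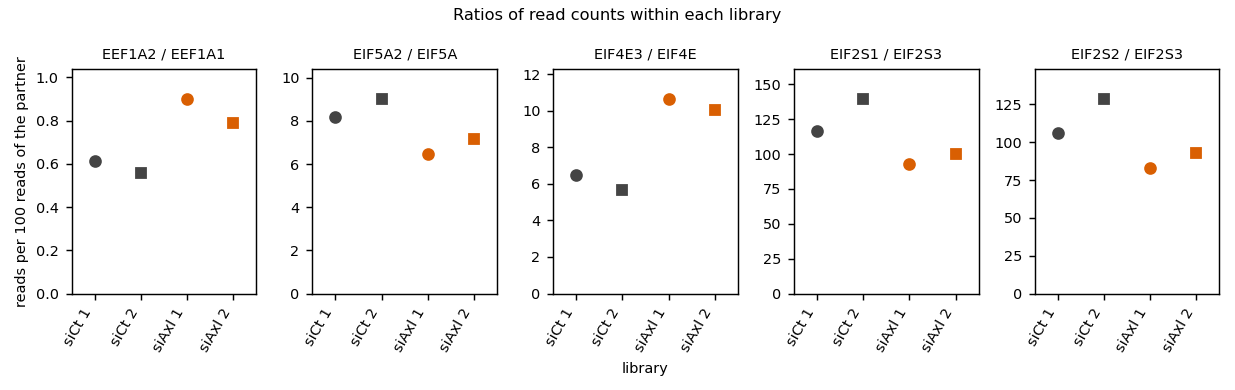
Reads of a gene per 100 reads of its partner within each library, for 3 pairs of paralogs and for the alpha (EIF2S1) and beta (EIF2S2) subunits of eIF2 against gamma (EIF2S3). Each axis starts at 0, and in each panel the siAxl libraries lie apart from the siCt libraries, for EEF1A2 at 0.902 and 0.791 against 0.611 and 0.558.

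eIF2B recharges eIF2 with GTP and is the point at which phosphorylated eIF2 blocks initiation. Of its 5 subunit genes, EIF2B3 fell and the other 4 were not called. EIF2B3 (ENSG00000070785), the gamma subunit, had 1767 and 1801 normalized counts in siCt and 1378 and 1492 in siAxl, or 80.4% of the siCt mean (log2 fold change -0.32 ± 0.0677 (SE), limma adjusted p = 0.0221). Its call was lost without siAxl 1 (adjusted p = 0.127). EIF2B5, the catalytic epsilon subunit, had a log2 fold change of -0.16 (95% confidence interval -0.29 to -0.031, adjusted p = 0.0853). Like EIF5B, it passed with total-read scaling, after removal of those trends, and under the block. EIF2B1, EIF2B2 and EIF2B4, the regulatory subunits, lay between -0.081 and -0.060, with adjusted p from 0.421 to 0.606.

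Of the factors that select the start codon, EIF1 fell. EIF1 (ENSG00000173812), which keeps the scanning ribosome from stopping at wrong codons, had 17522 and 17750 normalized counts in siCt and 15152 and 15420 in siAxl (log2 fold change -0.21 ± 0.0524 (SE), limma adjusted p = 0.0360). Without any 1 library its adjusted p lay between 0.0895 and 0.194. EIF1B, its paralog, had 1216 and 1223 in siCt and 1107 and 1148 in siAxl (-0.11, adjusted p = 0.276). EIF1AX, which works beside eIF1, and EIF1AD, a nuclear protein of the same fold, had log2 fold changes of -0.10 (adjusted p = 0.225) and -0.091 (adjusted p = 0.344). EIF5, which triggers GTP hydrolysis by eIF2, was the exception in sign, at 13678 and 13347 in siCt and 14176 and 14270 in siAxl (0.074, adjusted p = 0.368).

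None of the 14 genes of the eIF3 scaffold was called in the main test, against 18.7% of all genes. Of the 14, 13 had a log2 fold change below 0 (92.9%), against 50.3% of all genes. EIF3D and EIF3J passed with libraries scaled by total reads alone, and more eIF3 genes passed under the replicate block, as given below. In 9 (64.3%) the groups were separate with siAxl lower, against 30.5% of all genes. The values ran from -0.17 in EIF3C to 0.090 in EIF3CL, with a median of -0.096. EIF3J (ENSG00000104131), a loosely bound subunit, had the smallest p. It had 3422 and 3415 normalized counts in siCt and 3002 and 3117 in siAxl (log2 fold change -0.16 ± 0.0556 (SE), limma adjusted p = 0.0879). EIF3D, which can bind the cap, was at -0.16 (adjusted p = 0.0935), and EIF3M, EIF3E and EIF3G between -0.15 and -0.13 (adjusted p from 0.131 to 0.180). EIF3A (ENSG00000107581), the largest subunit and one of the 5 members of highest count, had 24791 and 26477 in siCt and 22631 and 24397 in siAxl (-0.12, adjusted p = 0.230). EIF3H, EIF3K and EIF3L, of the outer ring, lay between -0.016 and -0.0059. The coding sequences of EIF3C and EIF3CL are 100% identical over 2739 bases, and their low counts, 282 to 327 and 41.2 to 45.6, are uncertain as levels.

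Among the eIF4 proteins, the low-level cap-binding protein EIF4E3 rose and no gene fell past the threshold. EIF4E3 (ENSG00000163412) had 205 and 193 normalized counts in siCt and 302 and 288 in siAxl, from a mean of 199 ± 8.72 to 295 ± 10 (SD, n = 2 in each; log2 fold change 0.57 ± 0.110 (SE), limma adjusted p = 0.0158). Its call was lost without siAxl 1 or siAxl 2, with adjusted p up to 0.0818 and a fold change of at least 0.52. EIF4E (ENSG00000151247), the main cap-binding protein, had 3169 and 3394 in siCt and 2830 and 2867 in siAxl (log2 fold change -0.20, 95% confidence interval -0.35 to -0.061, adjusted p = 0.0575). EIF4E passed with total-read scaling, after removal of trends in GC content and exonic length, and under the replicate block. EIF4E2, which represses translation of the mRNAs it binds, had 3882 and 3950 in siCt and 3827 and 3866 in siAxl (-0.026, adjusted p = 0.778).

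Reads of EIF4E3 per 100 reads of EIF4E were 6.48 and 5.68 in siCt and 10.7 and 10.04 in siAxl. The siAxl ratios lay above the siCt ratios, with an exact permutation p of 0.333, the smallest possible. The coding sequences of this pair are 60.3% identical over the bases aligned.

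Of the scaffolds that bridge cap and ribosome, EIF4G1 (ENSG00000114867) had 45425 and 47047 normalized counts in siCt and 39814 and 41620 in siAxl (log2 fold change -0.18 ± 0.0603 (SE), limma adjusted p = 0.0766). It was past the threshold with DESeq2, with libraries scaled by total reads alone, and with the replicate number as a block. It also passed after removal of trends in GC content and exonic length. EIF4G2 (ENSG00000110321), which works without the cap-binding protein, had 49767 and 48346 in siCt and 48882 and 50637 in siAxl, and the groups overlapped (0.020 ± 0.0598 (SE), limma adjusted p = 0.846). EIF4G3 was at 0.043 (adjusted p = 0.691). EIF4G1 lay at 91.3 and 97.3 reads per 100 of EIF4G2 in siCt and at 81.5 and 82.2 in siAxl.

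The helicase EIF4A2 had 18570 and 18201 normalized counts in siCt and 16928 and 15566 in siAxl (-0.18, adjusted p = 0.0852). EIF4A3, the related helicase of the exon junction complex, had 3852 and 3979 in siCt and 4017 and 4234 in siAxl (0.075, adjusted p = 0.411). EIF4A1, the main helicase, had 548 and 355 in siCt and 531 and 322 in siAxl, so that libraries of the same number were alike and the interval of its log2 fold change ran from -0.72 to 0.54. In GENCODE v29, 41.1% of its exonic bases overlap AC016876.2 on the same strand, which had a mean of 64.2 normalized counts. The read-through gene SENP3-EIF4A1 overlaps 29.8% on the same strand, but its identifier had no deposited count. Reads in exons shared by counted genes cannot be given to 1 gene. EIF4B and EIF4H, helpers of the helicase, were at -0.12 (adjusted p = 0.253) and -0.0069 (adjusted p = 0.949), and EIF4ENIF1, a shuttle of eIF4E, at 0.023 (adjusted p = 0.850).

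The 4 members not tested had at most 3 reads in any library and were EEF1G, EEF1E1-BLOC1S5, EIF4E1B and EIF1AY. EEF1G encodes the gamma subunit of eEF1, and 99.9% of its exonic bases are shared on the same strand with AP002990.1, so its count does not give its level. EIF4E1B, the germ cell form of eIF4E, had 0 reads in each library, which allows up to 3 reads. Per kilobase of exonic length, the order of the levels over the 4 libraries was led by EEF1A1 at 29238 normalized counts per kilobase, EEF2 at 12213, EIF6 at 7068, EIF4H at 6574 and EIF3I at 6087. EIF4E3, at 22.9, was the lowest of the members that changed, and EIF5A2 and EEF1A2 lay at 227 and 253. Exonic length counts every exon that GENCODE v29 annotates for a gene, expressed or not, so this order is approximate.

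Members with and without a pyrimidine start were set side by side. Of the 12 members with C and at least 4 pyrimidines at the start, 0 were called by limma. Of the 34 tested members matched without such a start 9 were (26.5%), 8 lower and 1 higher. Among all tested genes matched without such a start, 21.6% were called. EIF2A, EIF3D, EIF3M and EIF4A2 of the first set had an unadjusted p under 0.05, from 0.0158 to 0.0432. The medians of the sets were nearly equal, at -0.089 and -0.092, and the difference between the counts was not tested. With DESeq2 and both edgeR fits 0 of the 12 were called as well, with libraries scaled by total reads alone 2 were (EIF2A and EIF3D), and without siCt 1 also 2 (EIF2A and EIF2S3). Over all genes tested, those with such a start had 108 of 532 called (20.3%) and a median of 0.0032. Of the 9 members taken as known TOP mRNAs, EEF1A1, EEF1B2, EEF1D, EEF2, EIF3E, EIF3F, EIF3H and EIF4B were tested, 0 were called, and their log2 fold changes ran from -0.14 to 0.016, while EEF1G was not tested. CACGTG, the E-box bound by MYC and related factors, is in 12 of the 50 member promoters (24.0%), from 250 bases before to 50 after the start, against 7.26% of all promoters. Among tested genes matched by symbol, 1019 had it and 9271 did not. Of the 12 members with it, EIF5A2 and EIF2B3 were called (16.7%), against 24.8% of the 1019 tested genes with CACGTG and 18.7% of all genes.

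**Figure D4:**
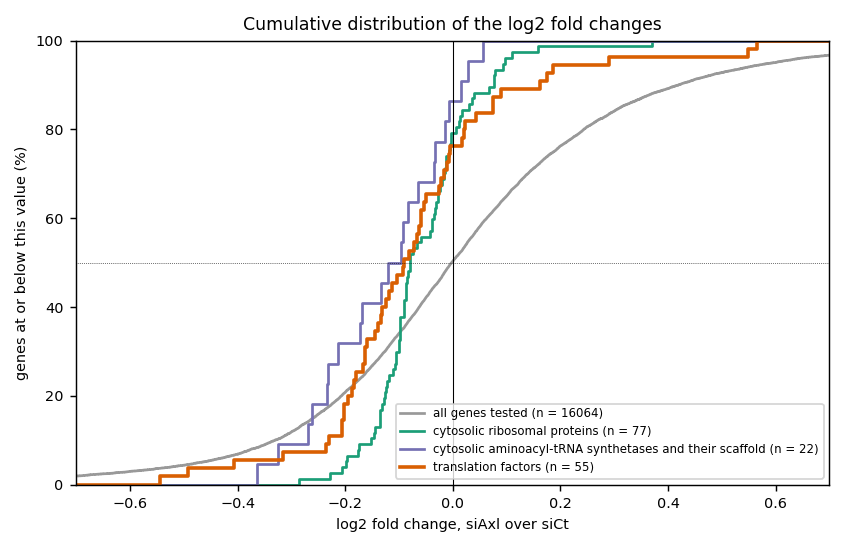
Cumulative share of genes at or below each log2 fold change (siAxl over siCt), for the 55 translation factors (orange), the 77 cytosolic ribosomal protein genes, the 22 genes of the cytosolic aminoacyl-tRNA synthetases and their scaffold, and all 16064 genes tested (grey). The 3 translation lists cross 50% at medians of -0.091, -0.079 and -0.11, and all genes at -0.0022.

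Other lists of cytosolic translation genes also had medians below 0. Of the 22 genes of aminoacyl-tRNA synthetases and their scaffold, which charge tRNAs, 5 fell and 0 rose (22.7% called, against 18.7% of all genes), with a median of -0.11. These were FARSB (log2 fold change -0.36, limma adjusted p = 0.00792), IARS (-0.32, adjusted p = 0.0127), NARS (-0.27, adjusted p = 0.0176), YARS (-0.26, adjusted p = 0.0253) and RARS (-0.21, adjusted p = 0.0349). AIMP1 and AIMP2, which form the synthetase scaffold with the product of EEF1E1, had log2 fold changes of -0.23 (adjusted p = 0.0514) and -0.23 (adjusted p = 0.0878). Of 77 cytosolic ribosomal protein genes, 3 fell and 1 rose (5.19% called), with a median of -0.079. RPLP2, of the ribosomal stalk, rose by 0.37 (adjusted p = 0.0125), and RPS27L, RPL17 and RPL7 fell by 0.29, 0.23 and 0.20. Without siAxl 1, siAxl 2 or siCt 2 the synthetase and ribosomal lists had fewer calls, as had all genes. Without siCt 1 the ribosomal list also had fewer, while all genes had more.

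Of the 13 partners in poly(A) binding, recycling and termination, 3 fell and 0 rose (23.1% called, against 18.7% of all genes). ETF1, the release factor that reads stop codons, had a log2 fold change of -0.29 (limma adjusted p = 0.0242). DENR and ABCE1, which recycle ribosomal subunits, were each at -0.24 (adjusted p = 0.0265 and 0.0281). Of 9 mitochondrial translation factors, 4 fell and 0 rose (44.4%, against 7.91% of all genes lower and 18.7% called in either direction), GFM1 by 0.38 (adjusted p = 0.00982), GFM2 by 0.32 (adjusted p = 0.0229), MTIF2 by 0.27 (adjusted p = 0.0276) and MRRF by 0.25 (adjusted p = 0.0415), which are elongation, recycling and initiation factors of mitochondria. Without siAxl 1, siAxl 2 or siCt 2 the first list lost all its calls, and all genes had fewer. Without siAxl 1 or siAxl 2 the mitochondrial list had fewer calls too.

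The regulators of the factors changed in both directions. Of 20 tested, 5 rose and 3 fell (40.0% called, against 18.7% of all genes), with a median of 0.0092. RPS6KB1 and RPS6KB2, the S6 kinases that mTOR activates, had log2 fold changes of 0.56 (limma adjusted p = 0.00264) and 0.28 (adjusted p = 0.0216), and RPTOR, a subunit of the mTOR complex, of 0.24 (adjusted p = 0.0243). PPP1R15B, which directs a phosphatase to eIF2 alpha, was at -0.35 (adjusted p = 0.0169).

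The 4 kinases of eIF2 alpha, set side by side after their values were seen, differed in sign. EIF2AK3, the kinase of endoplasmic reticulum stress, had 1020 and 911 normalized counts in siCt and 1186 and 1226 in siAxl (0.32, adjusted p = 0.0333). EIF2AK4, the sensor of uncharged tRNA, was at 0.22 (adjusted p = 0.0467). EIF2AK1, the heme-regulated kinase, had 7382 and 7624 in siCt and 6633 and 6522 in siAxl (-0.19, adjusted p = 0.0474), and EIF2AK2, activated by double-stranded RNA, was at -0.19 (adjusted p = 0.152). Of the repressors of eIF4E, EIF4EBP1 was at -0.033 (adjusted p = 0.783) and EIF4EBP2 at 0.19 (adjusted p = 0.0579). Without siAxl 1, siAxl 2 or siCt 2 fewer regulators were called, as were fewer of all genes.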

How the data were processed

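RNA of 4 libraries of MDA-MB-231 cells (siCt 1, siCt 2, siAxl 1, siAxl 2) was sequenced on an Illumina HiSeq instrument. The submitters' processing notes name CASAVA 1.8, TopHat2 2.0.10, HTSeq 0.5.3, DESeq2 1.4.5 and the build GRCh37, and the annotation release and strand setting are not given in the sources used here. The authors deposited a normalized signal, gene counts divided by the DESeq2 size factor of each library. The deposited columns of fold changes and p-values were not used. Division by the step of each library gave whole reads for 100% of its values (within 0.01 reads, scaled up in proportion for the highest counts), and these reads were used by the count tests. The libraries of a group differed beyond counting noise (chi-square over genes, per gene, 14.3 in siCt and 13.0 in siAxl). This does not show that they came from separate transfections. Each was treated as a sample in the tests.

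limma (3.58.1, eBayes with trend, no covariates, R 4.3.3) was run on log2(normalized count + 1) over the 16064 genes that passed edgeR's filterByExpr. edgeR (4.0.16) and DESeq2 (1.42.0) on the recovered reads, other scalings, pseudocounts and filters, the replicate block and leaving out each library were alternatives. Scripts were tested on simulated counts. Overlaps, exonic lengths and coding sequences came from GENCODE v29 by Ensembl identifier (82.5% of the table's identifiers matched, and each of the 59 members), with coding sequences aligned in Biopython (1.88). Members and lists were chosen with earlier results of these data known. Every member could be named. Full statistics were given for called members, the 5 of highest count and the member of smallest p in each role group, and paralog sets were set side by side. Of the other lists up to 5 called genes of smallest p were named by rule. The kinases of eIF2 alpha, DHPS, AIMP1, AIMP2, EIF4EBP1 and EIF4EBP2 were named outside this rule. Counting limits cover counting error only.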

Additional observations from a re-analysis of the deposited data

How the results depend on the processing

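With 2 libraries a group the spread of single genes is known poorly, which limits the calls of the small changes seen here. A threshold of 0.01 left 2 members lower and 1 higher, 1 call among the regulators, 0 among the recycling and termination partners, 1 among the synthetases, 1 among the mitochondrial factors and 0 among the ribosomal proteins. With every gene of at least 1 read tested, which adds 11044 genes, 2 members were lower, and the same lists had 1, 0, 1, 1 and 0 calls. Scaling by total reads alone gave 16 members lower, 8 calls among the synthetases and 8 among the ribosomal proteins. The 7 members added were EIF2A, EIF2B5, EIF3D, EIF3J, EIF4E, EIF4G1 and EIF5B. Over all genes this scaling moved the median log2 fold change from -0.0022 to -0.031, and genes called lower from 1271 to 1745. The cause of the difference between the scalings was not tested. Leaving out 1 library in turn gave 2 to 9 members lower and 1 to 3 higher, 1 to 8 regulators, 0 to 4 partners, 1 to 7 synthetases, 1 to 4 mitochondrial factors and 0 to 2 ribosomal proteins. edgeR gave 9 members lower and 2 higher with either scaling and DESeq2 10 and 2. Both fits with edgeR and that with DESeq2, TMM scaling, and pseudocounts of 0.5 and 8 kept each count within 1.5 times. The removal of the trend with GC content and exonic length, chosen after seeing the data, gave 13 lower and ended the call of EIF6. It added EEF1D, EIF2B5, EIF4E, EIF4G1 and EIF5B. A set of 5 members with a near-identical copy or a large same-strand overlap was also chosen after seeing the data. Without these (EIF3C, EIF3CL, EIF4A1, EIF5AL1 and EIF2S3L) 8 members were lower. EIF3L stayed in, although 41.1% of its exonic bases overlap AL022311.1 on the same strand, whose identifier had no deposited count. Members with smaller overlaps stayed in too. AXL stayed between -2.07 and -1.79 throughout. No result changed sign with a call.

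The labels number the libraries of each group 1 and 2 but do not say that a number marks a shared day or batch. Deviations from the group means of siCt 1 and siAxl 1 had a Pearson correlation of 0.27 across the 16064 genes and of 0.78 across the 55 members, and genes are not independent replicates. With the replicate number as a block, 24 members were lower and 4 higher, with 15 calls among the regulators, 6 among the partners, 13 among the synthetases and 45 among the ribosomal proteins. The block added 17 members to those called. Among them were EIF2B5, EIF4E, EIF4G1, EIF5B and, of eIF3, EIF3A, EIF3D, EIF3E, EIF3G, EIF3J and EIF3M. Of the 12 members with a pyrimidine start 7 were called under the block, and all genes called rose from 3006 to 7310.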

Other observations

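Rows of the table annotated as pseudogenes with EIF or EEF symbols held reads too. Of 112 such rows, 56 had reads, and their normalized counts summed to 12214 and 13113 in siCt 1 and siCt 2 and to 11803 and 12452 in siAxl 1 and siAxl 2, or 1.88% to 1.97% of the sum over the 59 members. EEF1A1P5 led them, with 7270 and 8125 in siCt and 7342 and 7929 in siAxl, and the groups overlapped. EIF2S2P4 had 503 and 545 in siCt and 416 and 444 in siAxl. Both siAxl values lay below both siCt values, as for EIF2S2 and for 30.5% of all genes tested. The same held for EEF1A1P12, at 1764 and 1731 in siCt and 1516 and 1644 in siAxl, although the groups overlapped for EEF1A1. Reads of a processed copy and of its parent gene can be confused, and these values were not tested.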
